A study of Mus musculus with 6 samples.

Results

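The genes described here are 37 members of the NF-κB system and its inflammatory outputs: the NF-κB subunits, IκB-type genes, feedback regulators and adaptors, cytokines, chemokines and effector genes induced by inflammation. They were taken from a fixed list of symbols, and each of the 37 matched 1 of the 55421 Ensembl gene IDs in the count tables. The tables came from RNA sequencing of pancreatic islets of wild-type C57BL/6 mice, in 3 libraries labelled vehicle and 3 libraries labelled as stimulated with the ligand insB:9-23. No age is given in the sources used here, and neither is the dose, the route or the duration. The ligand's name is that of a fragment of the insulin B chain. The wording of the design leaves unsettled whether the mice or their islets received it. The labels name no mouse or pool behind a library, so the p-values measure the spread between libraries, which may be technical. By its title the series looks for islet genes and pathways on which the ligand acts, and the comparison of the 2 groups asks this for these genes.

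NF-κB proteins are dimeric transcription factors that IκB proteins hold in the cytoplasm of resting cells. Tumour necrosis factor, interleukin-1 and microbial products activate IκB kinases, IκB is degraded, and the freed dimers switch on cytokines, chemokines, adhesion molecules and their own inhibitors. In islets, interleukin-1 acting on beta cells is a textbook route to this response, and resident macrophages are a source of the cytokine.

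Total counts lay between 52052808 and 58880189 per library. Beta cell RNA was plentiful: the 10 beta cell markers summed to between 113555 and 130914 CPM per library. CPM are read counts scaled to a common library size with TMM factors. Mafa, a beta cell transcription factor, was nevertheless listed at 0 in all 6. Exocrine RNA was plentiful too. The 12 acinar markers summed to 119672, 132666 and 145300.0 CPM in the vehicle libraries and 157661, 134645 and 263845 CPM in the insB:9-23 libraries. The acinar sum exceeded the beta cell sum in every library except vehicle replicate 1 (119672 against 126015 CPM). The levels given below are therefore those of islet preparations that held much acinar RNA. Markers of lymphocytes stood apart in 1 library. The 12 T and NK cell markers summed to 3.40, 4.04 and 3.35 CPM in the vehicle libraries and 3.93, 22.7 and 4.06 CPM in the insB:9-23 libraries, and 11 of the 12 were highest in insB:9-23 replicate 2. The 10 B and plasma cell markers summed to 56.0, 30.8 and 29.4 CPM in the vehicle libraries and 48.9, 158 and 13.3 CPM in the insB:9-23 libraries, with 9 of the 10 highest in that library. No gene of these marker lists passed the edgeR test, and DESeq2 called 1, Ccr7, a homing receptor of T cells. Of their defining genes Cd3d, Cd8a, Ncr1, Klrb1c and Igkc had 0 counts in some libraries. For Ncr1, a gene of NK cells, and Igkc, an antibody light chain gene, insB:9-23 replicate 2 was itself 1 of those libraries. Each sum was also taken without the gene of highest CPM in insB:9-23 replicate 2, which was Ccr7 for T and NK and Ighm for B and plasma. The T and NK sum was then 16.7 CPM in that library and 1.90 to 3.97 CPM in the others. The B and plasma sum was 65.8 CPM there and 9.11 to 26.2 CPM in the others. Members whose log2 fold turned direction without insB:9-23 replicate 2 are given with and without it. In these bulk libraries fewer cells of a type and less RNA per cell cannot be told apart.

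Most of the NF-κB machinery was expressed in these islet preparations, and most of the inflammatory outputs were low. By their mean over the 6 libraries, 28 of the 37 members reached 1 CPM, and 24 did so in every library. The 24 included all 5 NF-κB subunits, all 5 IκB-type genes and 5 of the 6 feedback genes and adaptors. Il1a, Cxcl2, Vcam1 and Ptgs2 reached the mean of 1 CPM but not every library. The 9 members with a mean under 1 CPM were Ccl2, Il33, Il6, Nos2, Traf1, Lcn2, Ccl7, Ccl20 and Cxcl5. Nearest to that threshold were Il1a (mean 1.19 CPM) inside it and Ccl2 (mean 0.969 CPM) outside it. Without insB:9-23 replicate 2 the number was 25, as Il1a, Vcam1 and Ptgs2 then fell short.

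Ccl20 and Cxcl5, which attract CCR6-bearing lymphocytes and neutrophils, had 0 counts in all 6 libraries. A count of 0 allows a level of up to 0.0475 to 0.0655 CPM (3 counts over each TMM-scaled library size, counting error only). The other 35 members passed the filter on low counts and were tested, and none of them had 0 counts in any library.

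Levels of different genes were compared per kilobase of annotated exon. The interleukin-1 receptor gene Il1r1 stood highest of the 37, at a mean of 79.4 CPM per kb. Nfkbia followed at 22.8, Nfkbiz at 12, Birc2 at 9.47 and Rela at 7.55 CPM per kb. Among the tested members Traf1 was lowest at 0.0446 CPM per kb, and Nos2 and Lcn2 stood at 0.101 and 0.136. The receptor for interleukin-1 was thus far more abundant as RNA than its ligands, since Il1b was at 2.41 and Il1a at 0.601 CPM per kb.

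**Figure D1:**
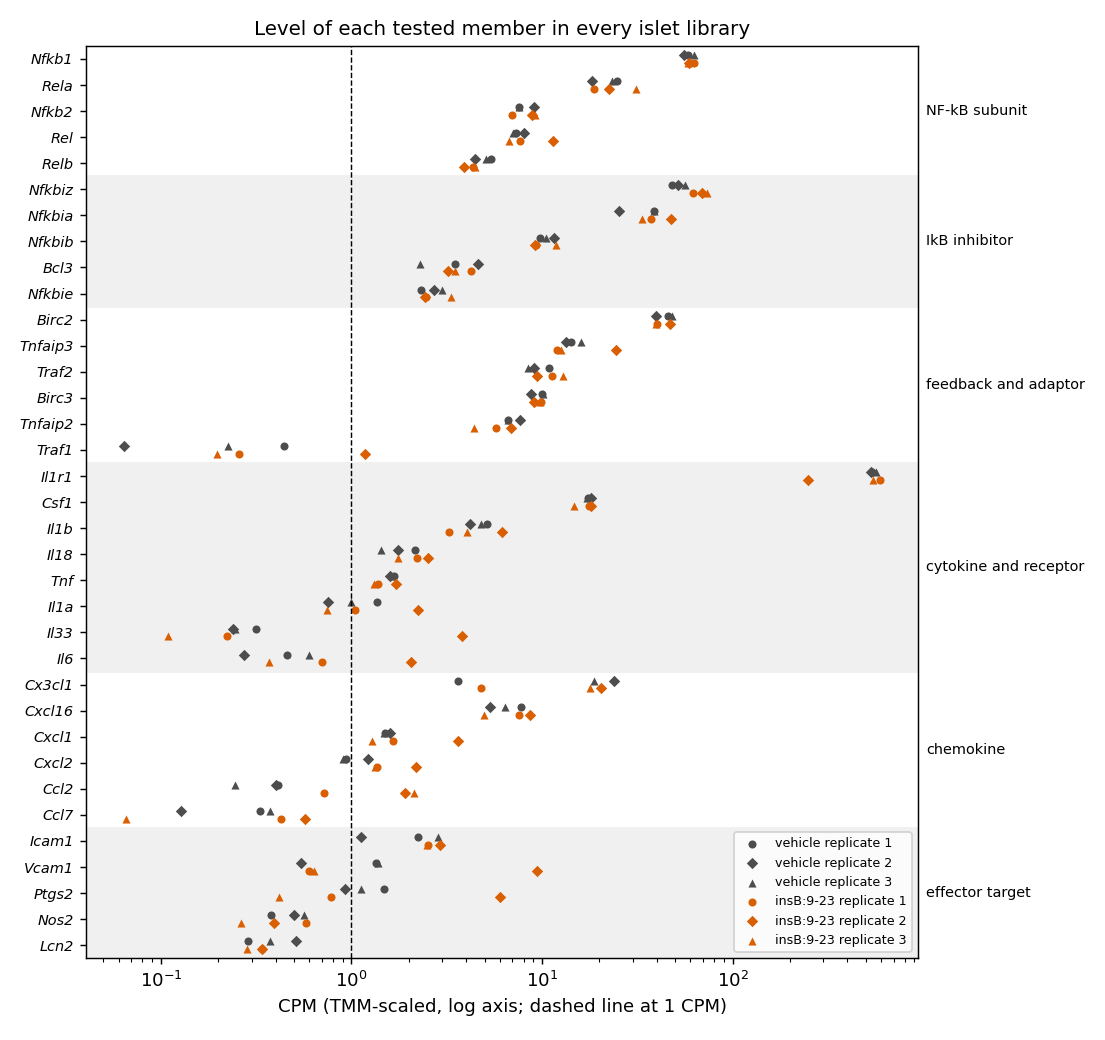
Each row is a tested member, grouped by role, and each point is its level in 1 library in CPM on a log axis (circles, diamonds and triangles are replicates 1, 2 and 3; grey is vehicle, orange is insB:9-23). Il1r1 lies at 249.8 CPM or more in every library, and the orange diamond of insB:9-23 replicate 2 stands to the right of the other points for Il33, Vcam1, Ptgs2, Il6 and Traf1.

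No member passed the edgeR quasi-likelihood test between the groups. Of the 35 tested members 0 passed at an adjusted p of 0.05, and the background was 0.0823% of the 17016 genes tested (14 genes; 5 higher, 0.0294%, and 9 lower, 0.0529%). At an unadjusted p below 0.05 there were 2 members, Nfkbiz and Ccl2, both higher, against a background of 5.55% of all genes (2.74% higher, 2.81% lower). limma-voom called 0 members (background 0.0999%), with the same 2 at an unadjusted p below 0.05. DESeq2 called 1, Ccl2, against a background of 0.682% (116 genes). The groups did not overlap for 4 members (Nfkbiz, Ccl2 and Cxcl2 higher, Relb lower), against a background of 13.5% of genes. Fitted log2 folds were above 0 for 23 of the 35, against 51.5% of all genes, and their median log2 fold was 0.12, against 0.01 over all genes tested. Without insB:9-23 replicate 2 the median was -0.05. A miss of the threshold does not show that a gene was unchanged, so 95% intervals are given with the log2 folds.

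**Figure D2:**
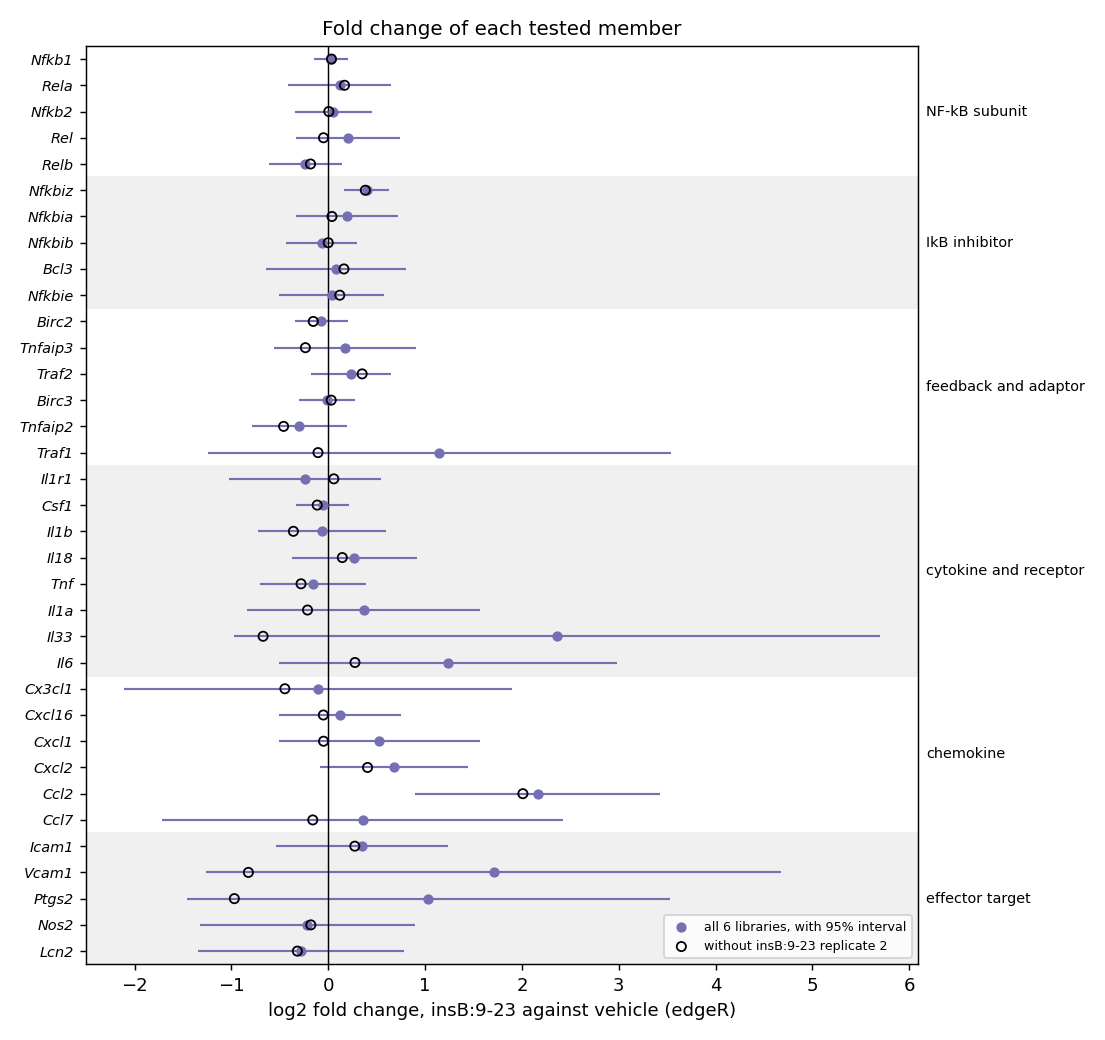
Filled points are log2 fold changes of the 35 tested members (insB:9-23 against vehicle, edgeR) with their 95% intervals, and open circles are the log2 folds without insB:9-23 replicate 2. The intervals are narrow for abundant genes such as Nfkb1 (-0.15 to 0.20) and wide for Il33 (-0.98 to 5.70), whose open circle lies at -0.67.

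Promoter sequence was looked up for the members to show the element that NF-κB reads. RefSeq start sites (GRCm38.p6) gave windows of 250 bases before the start for 28 of the 37 members (34 windows). The other 9 members are Ccl2, Ccl7, Cxcl16, Cxcl5, Nfkb1, Nfkbiz, Nos2, Relb and Vcam1. Both strands were searched for the κB consensus and for GGNNTTTCC, which can overlap it. The consensus was found in 12 of the 28 members (42.9%), against 8.23% of all 27025 genes with a window, and in 14 of the 34 windows, against 7.25% of all windows. GGNNTTTCC was found in 12 members (42.9%), against 5.62% of all genes, and in 13 windows, against 4.93% of all windows. The members were chosen as NF-κB targets, so these shares describe the list. A match is a run of letters, not a measured binding site, and no match says only that these letters are not in this window.

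Nfkbia is the classic feedback target, and Cxcl1, Cxcl2 and Il6 were all highest in insB:9-23 replicate 2. The windows of these 4 members, which all hold a match, are shown. Each runs 5′ to 3′ on the gene's strand and ends at the base before the RefSeq start site, and capitals mark matches to either motif on either strand, joined where they overlap. They lie on GRCm38.p6 at chr12:55492648-55492897, minus strand (Nfkbia), chr5:90890995-90891244, plus strand (Cxcl1), chr5:90903649-90903898, plus strand (Cxcl2) and chr5:30012864-30013113, plus strand (Il6).
Nfkbia: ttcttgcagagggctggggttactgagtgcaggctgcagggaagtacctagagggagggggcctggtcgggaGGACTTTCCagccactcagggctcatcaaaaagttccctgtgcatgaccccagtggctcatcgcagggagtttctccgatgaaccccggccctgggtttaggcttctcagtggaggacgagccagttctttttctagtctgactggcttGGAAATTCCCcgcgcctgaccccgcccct
Cxcl1: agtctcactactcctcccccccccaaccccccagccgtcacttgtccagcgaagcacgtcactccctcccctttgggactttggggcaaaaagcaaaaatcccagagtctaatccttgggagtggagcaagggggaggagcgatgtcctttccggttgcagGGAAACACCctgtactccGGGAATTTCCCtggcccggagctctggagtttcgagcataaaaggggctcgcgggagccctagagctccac
Cxcl2: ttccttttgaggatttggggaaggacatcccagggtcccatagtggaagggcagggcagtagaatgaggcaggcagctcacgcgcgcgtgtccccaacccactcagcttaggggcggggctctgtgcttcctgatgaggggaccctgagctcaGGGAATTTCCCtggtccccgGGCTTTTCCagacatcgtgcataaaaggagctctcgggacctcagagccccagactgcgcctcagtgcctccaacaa
Il6: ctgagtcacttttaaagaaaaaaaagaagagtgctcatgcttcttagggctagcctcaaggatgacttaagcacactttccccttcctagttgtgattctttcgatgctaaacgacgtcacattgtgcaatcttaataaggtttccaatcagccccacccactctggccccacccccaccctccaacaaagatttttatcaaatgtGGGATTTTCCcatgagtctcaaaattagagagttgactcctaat
Cxcl1 and Cxcl2 share the run GGGAATTTCCC, and each holds a further match in capitals close to it. Il6 holds 1 run in capitals, and Nfkbia holds 2 that lie far apart. Other members highest in insB:9-23 replicate 2 differed in this. The windows of Il33, Ptgs2, Traf1, Il1a, Il1b, Tnf and Il18 held neither motif. Rel, Tnfaip3, Csf1 and Icam1 had a window with a match, and Ccl7, Cxcl16 and Vcam1 had no window. Whether a match goes with a high value in that library was not tested.

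Among the NF-κB subunits 0 of 5 passed the test, and their median log2 fold was 0.05 (range -0.24 to 0.20). Nfkb1, the precursor of p50, was at 58.7, 55.9 and 62.5 CPM in the vehicle libraries and 62.5, 59.3 and 58.3 CPM in the insB:9-23 libraries (replicates 1 to 3 in each group, here and throughout). The groups overlapped within a narrow range, with a log2 fold change of 0.02 ± 0.07 (SE; 95% interval -0.15 to 0.20; edgeR adjusted p = 0.97). Rela, which encodes the transactivating subunit p65, was at 24.9, 18.4 and 23.4 CPM in the vehicle libraries and 18.8, 22.5 and 31.1 CPM in the insB:9-23 libraries. The groups overlapped, with the highest value in insB:9-23 replicate 3 and the lowest in vehicle replicate 2, and the log2 fold was 0.12 (95% interval -0.41 to 0.65; edgeR adjusted p = 0.95).

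Nfkb2, the precursor of p52 in the alternative pathway, was at 7.55, 9.07 and 7.57 CPM in the vehicle libraries and 6.98, 8.86 and 9.22 CPM in the insB:9-23 libraries (log2 fold 0.05, interval -0.35 to 0.45, edgeR adjusted p = 0.98). Rel, the subunit c-Rel best known from lymphocytes, was at 7.30, 8.04 and 7.08 CPM in the vehicle libraries and 7.70, 11.4 and 6.75 CPM in the insB:9-23 libraries. Its highest value was that of insB:9-23 replicate 2, the library with the highest lymphocyte markers, and the part of those cells in it was not tested. The log2 fold of Rel was 0.20 (interval -0.34 to 0.74; edgeR adjusted p = 0.92) with all libraries and -0.05 without that one. Relb, partner of p52, was at 5.40, 4.47 and 5.10 CPM in the vehicle libraries and 4.35, 3.91 and 4.43 CPM in the insB:9-23 libraries. It was the 1 member whose insB:9-23 libraries all lay under the vehicle libraries, with a log2 fold change of -0.24 ± 0.16 (SE; 95% interval -0.62 to 0.14; edgeR adjusted p = 0.88). Genes with no overlap in that direction made up 7.12% of all genes.

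Some IκB inhibitors are themselves NF-κB targets, and of the 5 IκB-type genes here Nfkbiz stood apart. Nfkbiz (chr16:55811375-55838899 on GRCm38), encoding the nuclear protein IκBζ that co-activates Il6 and related genes, was at 48.0, 51.6 and 56.1 CPM in the vehicle libraries and 62.4, 69.5 and 73.0 CPM in the insB:9-23 libraries. Every insB:9-23 library lay over every vehicle library, and the group means were 51.9 ± 4.07 CPM in the vehicle group and 68.3 ± 5.42 CPM in the insB:9-23 group (SD, n = 3 each). This gave a log2 fold change of 0.40 ± 0.10 (SE; 95% interval 0.17 to 0.63; edgeR adjusted p = 0.83) and an unadjusted p of 0.0057, so the difference exceeded the spread between libraries for this gene alone but not after adjustment over all genes. Its adjusted p over the alternatives ranged from 0.15 with DESeq2 to 0.99 without vehicle replicate 1. Its log2 fold was 0.38 without insB:9-23 replicate 2 and 0.24 with library totals alone, a scaling that moved the median of all genes to -0.15. Under that scaling its unadjusted edgeR p was not below 0.05. Genes with no overlap in the higher direction made up 6.4% of all genes.

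Nfkbia, encoding IκBα, the first inhibitor to be degraded and remade in a response, was at 38.7, 25.4 and 38.8 CPM in the vehicle libraries and 37.1, 47.3 and 33.4 CPM in the insB:9-23 libraries. The vehicle group held the lowest value and insB:9-23 replicate 2 the highest, and the groups overlapped, with a log2 fold change of 0.20 ± 0.21 (SE; 95% interval -0.33 to 0.72; edgeR adjusted p = 0.92). Without that library the log2 fold was 0.04. Nfkbib, encoding IκBβ, was at 9.72, 11.6 and 10.5 CPM in the vehicle libraries and 9.36, 9.14 and 11.8 CPM in the insB:9-23 libraries. Nfkbie, encoding IκBε, was at 2.33, 2.72 and 2.98 CPM in the vehicle libraries and 2.48, 2.42 and 3.34 CPM in the insB:9-23 libraries. Both overlapped between the groups, with log2 folds of -0.07 (interval -0.44 to 0.30) and 0.04 (-0.51 to 0.58) and edgeR adjusted p of 0.96 and 0.99. Bcl3, a nuclear IκB-like co-regulator of p50 and p52, was at 3.48, 4.62 and 2.29 CPM in the vehicle libraries and 4.25, 3.22 and 3.50 CPM in the insB:9-23 libraries. Its widest spread was within the vehicle group (log2 fold 0.08, interval -0.64 to 0.80, edgeR adjusted p = 0.98).

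**Figure D3:**
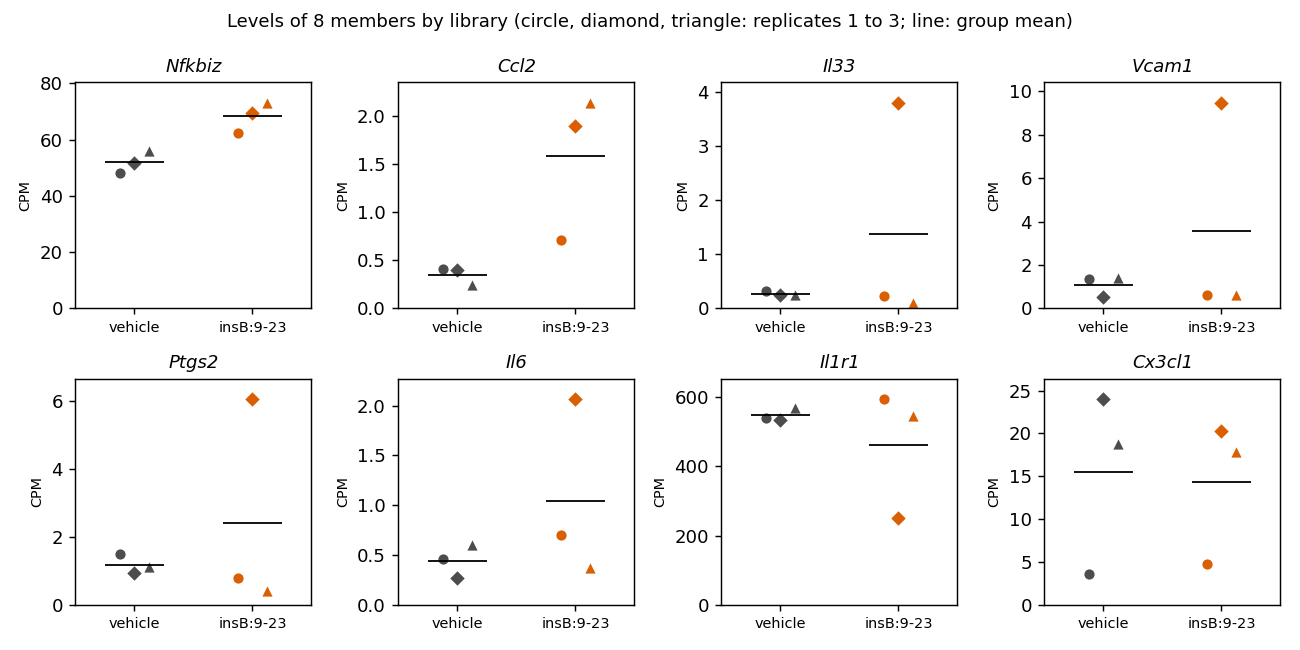
Each panel shows 1 member in CPM from 0, with the 3 libraries of each group as points and the group mean as a line. The groups are apart for Nfkbiz and Ccl2. For Il33, Vcam1, Ptgs2 and Il6 the diamond of insB:9-23 replicate 2 stands alone at the top, for Il1r1 it stands alone at 249.8 CPM, and for Cx3cl1 the 2 circles of replicate 1 stand alone at the bottom.

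Of the 6 feedback genes and adaptors 0 passed the test, with a median log2 fold of 0.08 with all libraries and -0.13 without insB:9-23 replicate 2. Birc2 and Birc3 encode cIAP1 and cIAP2, ubiquitin ligases of the TNF receptor complex. Birc2 was at 45.6, 39.6 and 48.1 CPM in the vehicle libraries and 40.1, 47.1 and 39.7 CPM in the insB:9-23 libraries, and Birc3 at 10.1, 8.77 and 10.2 CPM in the vehicle libraries and 9.94, 9.05 and 9.81 CPM in the insB:9-23 libraries. These were among the steadiest members, with a coefficient of variation over the 6 libraries of 9.21% and 6.02% and log2 folds of -0.07 (-0.35 to 0.21) and -0.01 (-0.30 to 0.28; edgeR adjusted p = 0.94 and 0.99). Traf2, an adaptor that brings the cIAPs to the receptor, was at 10.9, 9.09 and 8.45 CPM in the vehicle libraries and 11.3, 9.39 and 12.8 CPM in the insB:9-23 libraries (log2 fold 0.24, interval -0.18 to 0.65, edgeR adjusted p = 0.89). The groups overlapped for all 3, and without insB:9-23 replicate 2 the log2 fold of Birc3 was 0.03.

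Tnfaip3, encoding A20, the deubiquitinase that ends NF-κB signalling, was at 14.2, 13.3 and 15.9 CPM in the vehicle libraries and 12.1, 24.4 and 12.6 CPM in the insB:9-23 libraries. Only insB:9-23 replicate 2 lay over the vehicle range and the other 2 treated libraries lay under it, so the log2 fold was 0.17 (interval -0.56 to 0.90; edgeR adjusted p = 0.95) with all libraries and -0.24 without that one. Tnfaip2, an NF-κB target first found in endothelium, was at 6.65, 7.64 and 6.65 CPM in the vehicle libraries and 5.75, 6.90 and 4.39 CPM in the insB:9-23 libraries (log2 fold -0.30, interval -0.79 to 0.20, edgeR adjusted p = 0.89). Traf1, a TNF receptor adaptor typical of activated lymphocytes, was at 0.443, 0.0641 and 0.225 CPM in the vehicle libraries and 0.256, 1.17 and 0.197 CPM in the insB:9-23 libraries, from 4 to 66 counts a library. It too was highest in insB:9-23 replicate 2, and its log2 fold went from 1.15 (interval -1.25 to 3.54; edgeR adjusted p = 0.90) to -0.11 without it.

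The cytokine genes divided into a receptor at a high level and ligands at low levels, and 0 of 8 passed the test. Their median log2 fold was 0.11 with all libraries and -0.16 without insB:9-23 replicate 2. Il1r1 (chr1:40225080-40317257), the signalling receptor of interleukin-1, was at 539, 536 and 568 CPM in the vehicle libraries and 594, 249.8 and 546 CPM in the insB:9-23 libraries. The vehicle libraries lay close together, 2 treated libraries lay at or near their level, and insB:9-23 replicate 2 held 14048 counts where the other 5 held 24980 to 34801. The log2 fold was -0.24 (interval -1.03 to 0.55; edgeR adjusted p = 0.93) and 0.06 without that library, so its direction rested on it.

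Il1b and Il1a encode the 2 interleukin-1 ligands. Il1b was at 5.13, 4.17 and 4.80 CPM in the vehicle libraries and 3.26, 6.15 and 4.06 CPM in the insB:9-23 libraries, with the lowest and the highest value both in the insB:9-23 group (log2 fold -0.06, interval -0.72 to 0.59, edgeR adjusted p = 0.98). Il1a was at 1.36, 0.753 and 0.993 CPM in the vehicle libraries and 1.04, 2.22 and 0.743 CPM in the insB:9-23 libraries (log2 fold 0.37, interval -0.84 to 1.57, edgeR adjusted p = 0.94). Both ligands were highest in insB:9-23 replicate 2, without which their log2 folds were -0.36 and -0.21. Tnf, the gene of tumour necrosis factor, was at 1.68, 1.60 and 1.63 CPM in the vehicle libraries and 1.38, 1.71 and 1.31 CPM in the insB:9-23 libraries (log2 fold -0.16, interval -0.71 to 0.39, edgeR adjusted p = 0.94). Il18, an inflammasome-processed cytokine of the interleukin-1 family, was at 2.17, 1.76 and 1.42 CPM in the vehicle libraries and 2.20, 2.51 and 1.75 CPM in the insB:9-23 libraries (log2 fold 0.27, interval -0.38 to 0.92, edgeR adjusted p = 0.91). These were highest in that library too, and all 4 genes overlapped between the groups. Csf1, the growth factor that sustains macrophages, was steady at 17.4, 18.2 and 17.1 CPM in the vehicle libraries and 17.7, 18.2 and 14.7 CPM in the insB:9-23 libraries (coefficient of variation 7.45%, log2 fold -0.06, interval -0.33 to 0.22, edgeR adjusted p = 0.95).

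Il33 (chr19:29925114-29960718), an alarmin stored in the nuclei of stromal and endothelial cells, was at 0.317, 0.240 and 0.244 CPM in the vehicle libraries and 0.222, 3.81 and 0.109 CPM in the insB:9-23 libraries. That is 20, 15 and 13 counts in vehicle and 13, 214 and 5 counts in insB:9-23. The treated libraries thus held both the highest and the 2 lowest values, and the log2 fold of 2.36 (interval -0.98 to 5.70; edgeR adjusted p = 0.88) became -0.67 without insB:9-23 replicate 2. Il6, the cytokine of the acute-phase response, was at 0.459, 0.272 and 0.60 CPM in the vehicle libraries and 0.700, 2.06 and 0.371 CPM in the insB:9-23 libraries, and its log2 fold of 1.24 (interval -0.51 to 2.98; edgeR adjusted p = 0.88) became 0.28. Il6 reached 1 CPM in that 1 library only, and so did Il33.

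Among the chemokines Ccl2 was the member with the clearest separation, at a low level. The median log2 fold of the 6 tested chemokines was 0.44 with all libraries and -0.05 without insB:9-23 replicate 2. Ccl2 (chr11:82035571-82037453), the monocyte attractant MCP-1, had 26, 25 and 13 counts in vehicle and 42, 107 and 98 counts in insB:9-23. In CPM these were 0.412, 0.401 and 0.244 for vehicle and 0.717, 1.90 and 2.14 for insB:9-23. Every treated library lay over every vehicle library, with group means of 0.352 ± 0.0940 CPM in the vehicle group and 1.59 ± 0.763 CPM in the insB:9-23 group (SD, n = 3 each). The log2 fold was 2.16 ± 0.52 (SE; interval 0.90 to 3.42), with an unadjusted p of 0.0057 and an edgeR adjusted p of 0.83. DESeq2 gave a log2 fold of 2.17 and an adjusted p of 0.041. Over the other alternatives that tested Ccl2 the adjusted p lay between 0.29 (without insB:9-23 replicate 1) and 0.99 (without vehicle replicate 1). The stricter filter of at least 1 CPM in 3 libraries left Ccl2 untested, as it reached 1 CPM in 2 libraries. Without insB:9-23 replicate 2 the log2 fold was 2.01, so it did not rest on that library. Macrophage and dendritic cell markers, a list of 14 genes, summed to 97.9, 117 and 127 CPM in the vehicle libraries and 127, 186 and 92.3 CPM in the insB:9-23 libraries, and their part in the level of Ccl2 was not tested. Lyz2, a lysozyme gene of macrophages, held 61.8 CPM of the 186 CPM in insB:9-23 replicate 2 and 6.29 to 13.1 CPM in the others, and without it the sum was 124 CPM there and 84.8 to 115 CPM in the others. The library insB:9-23 replicate 3 had the highest Ccl2, the lowest sum of those markers and the highest sum of acinar markers, whose part was not tested either. Ccl7, the neighbouring gene on chromosome 11 and a related monocyte attractant, was at 0.332, 0.128 and 0.375 CPM in the vehicle libraries and 0.427, 0.569 and 0.0655 CPM in the insB:9-23 libraries, with the lowest and the highest value both in treated libraries (log2 fold 0.35, interval -1.72 to 2.42; edgeR adjusted p = 0.97; -0.16 without insB:9-23 replicate 2).

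Cxcl1 and Cxcl2 (chr5:90891241-90893115 and chr5:90903871-90905938) encode neutrophil attractants that act through CXCR2. Cxcl1 was at 1.5, 1.59 and 1.48 CPM in the vehicle libraries and 1.66, 3.65 and 1.29 CPM in the insB:9-23 libraries. Cxcl2 was at 0.934, 1.22 and 0.899 CPM in the vehicle libraries and 1.37, 2.19 and 1.33 CPM in the insB:9-23 libraries. For Cxcl1 only insB:9-23 replicate 2 lay apart, and its log2 fold of 0.53 (interval -0.51 to 1.57; edgeR adjusted p = 0.90) became -0.05 without that library. For Cxcl2 all treated libraries lay over all vehicle libraries, with a log2 fold change of 0.68 ± 0.31 (SE; 95% interval -0.09 to 1.45; edgeR adjusted p = 0.88), and the log2 fold without that library was 0.41. Neutrophil markers were at or near 0: the 8 genes summed to at most 0.495 CPM in any library, and Ly6g and Mpo had 0 counts in all 6.

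Cxcl16 and Cx3cl1 encode the 2 chemokines that are made as membrane proteins. Cxcl16 was at 7.79, 5.30 and 6.39 CPM in the vehicle libraries and 7.58, 8.63 and 4.96 CPM in the insB:9-23 libraries, overlapping between the groups (log2 fold 0.12, interval -0.51 to 0.75, edgeR adjusted p = 0.96, and -0.05 without insB:9-23 replicate 2). Cx3cl1 (chr8:94772009-94782427), encoding fractalkine, was at 3.61, 24.0 and 18.8 CPM in the vehicle libraries and 4.80, 20.3 and 17.9 CPM in the insB:9-23 libraries. In each group replicate 1 was low (228 and 281 counts) and the other libraries held 819 to 1497 counts, so the spread lay within the groups and the log2 fold of -0.11 had an interval of -2.11 to 1.89 (edgeR adjusted p = 0.99).

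Of the 5 effector genes 0 passed the test, and their median log2 fold was 0.35 with all libraries and -0.32 without insB:9-23 replicate 2. Vcam1 (chr3:116109949-116129688), the adhesion molecule bound by lymphocytes and monocytes, was at 1.35, 0.545 and 1.39 CPM in the vehicle libraries and 0.598, 9.46 and 0.634 CPM in the insB:9-23 libraries. Ptgs2 (chr1:150100031-150108227), encoding cyclooxygenase-2, was at 1.49, 0.929 and 1.12 CPM in the vehicle libraries and 0.785, 6.05 and 0.415 CPM in the insB:9-23 libraries. In both genes insB:9-23 replicate 2 was several-fold over every other library while the other treated libraries lay in or under the vehicle range. The log2 folds were 1.71 (interval -1.27 to 4.68; edgeR adjusted p = 0.89) and 1.03 (-1.46 to 3.53; adjusted p = 0.91) with all libraries, and -0.83 and -0.97 without that one.

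Icam1, the adhesion molecule bound by leukocyte integrins, was at 2.23, 1.12 and 2.85 CPM in the vehicle libraries and 2.51, 2.92 and 2.49 CPM in the insB:9-23 libraries, with the lowest value in the vehicle group (log2 fold 0.35, interval -0.54 to 1.24, edgeR adjusted p = 0.91). Nos2, the inducible nitric oxide synthase that cytokines switch on in rodent beta cells, was at 0.380, 0.497 and 0.562 CPM in the vehicle libraries and 0.580, 0.391 and 0.262 CPM in the insB:9-23 libraries (log2 fold -0.22, interval -1.33 to 0.90, edgeR adjusted p = 0.96). Lcn2, an iron-sequestering NF-κB target, was at 0.285, 0.513 and 0.375 CPM in the vehicle libraries and 0.341, 0.338 and 0.284 CPM in the insB:9-23 libraries (log2 fold -0.28, interval -1.34 to 0.78, edgeR adjusted p = 0.94). Nos2 held 12 to 34 counts and Lcn2 13 to 32 counts per library.

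Across the members, 1 library stood apart. Of the 35 tested members 18 (51.4%) had their highest value in insB:9-23 replicate 2, against a background of 19.2% of all genes tested. Of the others 7 were highest in insB:9-23 replicate 3 (background 19.8%), 4 in vehicle replicate 2 (15.8%), 3 in insB:9-23 replicate 1 (14.8%), 2 in vehicle replicate 3 (15.6%) and 1 in vehicle replicate 1 (14.7%). The 18 included 7 of the 8 cytokine and receptor genes, 4 of the 6 tested chemokines and 3 of the 5 effector genes, but 1 of the 5 subunits and 1 of the 5 IκB-type genes. Some of the 18 were near ties: Csf1, Tnf and Icam1 stood at 1.00, 1.02 and 1.02 times the highest other library. In 9 members (25.7%) insB:9-23 replicate 2 exceeded every other library by more than 1.5 times, against 2.96% of all genes. In each of the other 5 libraries 0 members did so, against 0.84% to 2.24% of all genes. The reverse, a value more than 1.5 times under every other library in insB:9-23 replicate 2, was met by 1 member, Il1r1 (2.86%), against 2.74% of all genes. These measures were chosen after the values were seen. The 9 were Il33 (12 times the highest other library), Vcam1 (6.82), Ptgs2 (4.06), Il6 (2.95), Traf1 (2.65), Cxcl1 (2.2), Il1a (1.63), Cxcl2 (1.6) and Tnfaip3 (1.53). The median difference of the 35 members from their vehicle mean, on the log2(CPM + 0.5) scale, was 0.40 in insB:9-23 replicate 2, 0.04 in replicate 1 and -0.10 in replicate 3. Over all genes the same medians were 0.01 to 0.02. The sums of the T and NK and of the B and plasma markers were highest in the same library, although Ncr1 and Igkc had 0 counts there. The part of these cells in the values was not tested. Stromal and stellate markers summed to 225 CPM in insB:9-23 replicate 2, against 147 to 222 CPM in the other libraries, with 2 of the 10 genes highest there. Without Dcn, a gene of that list at 25.7 CPM there, the sum was 199 CPM there and 141 to 210 CPM in the others. Endothelial markers summed to 459 CPM there, against 454 to 522 CPM in the others.

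**Figure D4:**
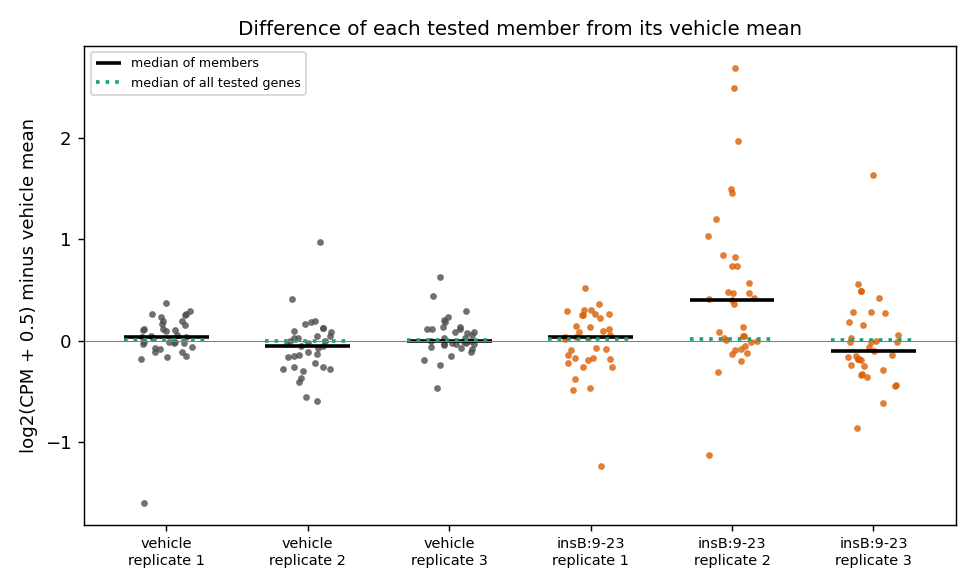
Each point is 1 of the 35 tested members in 1 library, as log2(CPM + 0.5) minus the gene's mean over the vehicle libraries, with the members' median as a solid line and that of all genes tested as a dotted line. The members' median is 0.40 in insB:9-23 replicate 2 and lies between -0.10 and 0.04 in the other 5 libraries.

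**Figure D5:**
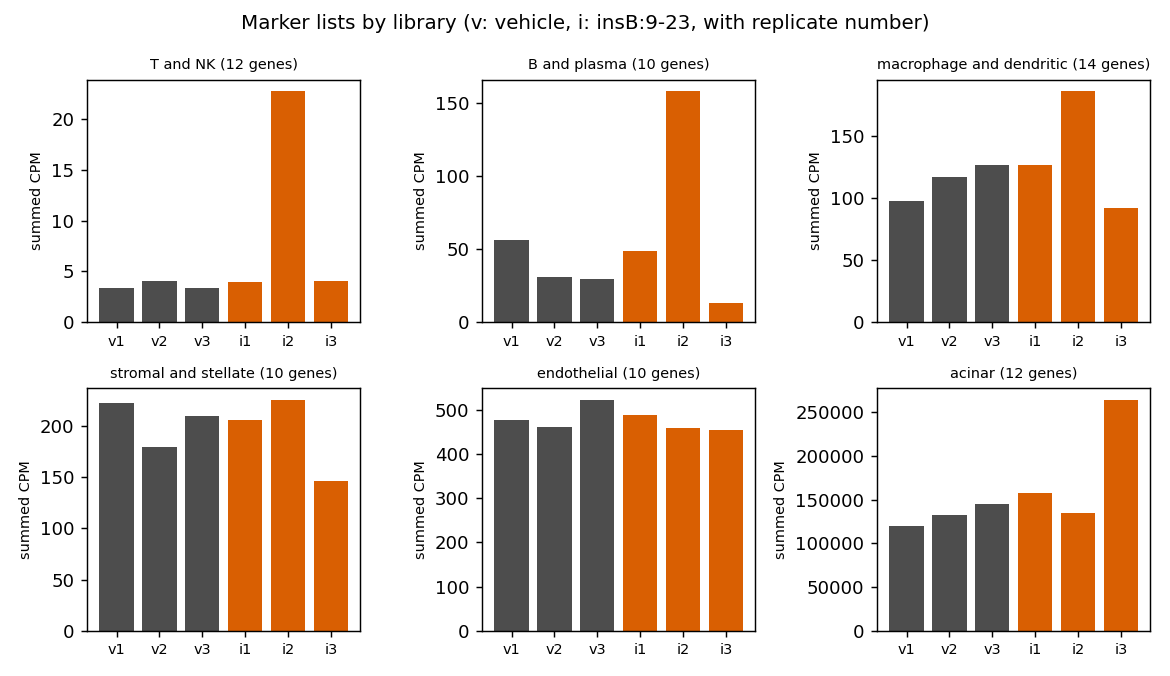
Bars are the summed CPM of marker lists in each library (v, vehicle; i, insB:9-23; with the replicate number), each panel from 0. The T and NK and the B and plasma sums peak in insB:9-23 replicate 2 (22.7 and 158 CPM), and the acinar sum peaks in insB:9-23 replicate 3.

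The rest of the pathway was read from 2 further lists. Of 63 genes for receptors, kinases, ubiquitin ligases and adaptors upstream of NF-κB, 61 were tested and 53 had a mean of at least 1 CPM. None of them passed the edgeR test in either direction, against the background of 0.0823% (DESeq2 and limma-voom called 0 as well), and their median log2 fold was 0.01. At an unadjusted p below 0.05 there were 2, against a background of 5.55%. Traf5, an adaptor of TNF receptors, was at 5.16, 4.05 and 3.95 CPM in the vehicle libraries and 6.21, 6.70 and 6.90 CPM in the insB:9-23 libraries (log2 fold 0.59, edgeR adjusted p = 0.88). Tlr4, the receptor for bacterial lipopolysaccharide, was at 1.14, 1.44 and 1.09 CPM in the vehicle libraries and 0.188, 0.124 and 0.743 CPM in the insB:9-23 libraries (log2 fold -1.81, edgeR adjusted p = 0.88). The groups did not overlap for either, with Traf5 higher and Tlr4 lower in the insB:9-23 libraries. Such a lack of overlap held for 9 of the 61 tested genes, against a background of 13.5% of all genes.

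Of 69 further NF-κB target genes 48 were tested and 36 had a mean of at least 1 CPM. Again 0 passed by edgeR, by DESeq2 and by limma-voom, with a median log2 fold of 0.13. By edgeR 3 of the 48 had an unadjusted p below 0.05, close to the background of 5.55% of all genes. Tnfsf9, the ligand of the costimulatory receptor 4-1BB, was at 0.950, 1.63 and 1.27 CPM in the vehicle libraries and 2.01, 2.24 and 2.08 CPM in the insB:9-23 libraries (log2 fold 0.71, edgeR adjusted p = 0.88). Cd44, the hyaluronan receptor, was at 15.1, 14.6 and 17.1 CPM in the vehicle libraries and 12.6, 13.7 and 11.1 CPM in the insB:9-23 libraries (log2 fold -0.33, edgeR adjusted p = 0.88). In neither did the groups overlap, which held for 7 of the 48 tested genes, against a background of 13.5% of all genes. Cxcl13, the chemokine that guides B cells into lymphoid follicles, was at 0.253, 0.160 and 0.15 CPM in the vehicle libraries and 0.137, 11.9 and 0.437 CPM in the insB:9-23 libraries, so its log2 fold of 4.45 (interval 0.10 to 8.79; edgeR adjusted p = 0.88) rested on insB:9-23 replicate 2.

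Some members share exonic sequence with a gene on the opposite strand, and the strand setting of the counting is not given in the sources used here. For Cxcl16, 18.3% of its exonic bases overlap Zmynd15 (71 to 121 counts per library). For Il1a, 11.2% overlap Gm14023 (46 to 103 counts, against 34 to 125 for Il1a). For Nfkb2, 11.6% overlap AC114539.1 (284 to 408 counts) and 6.5% overlap Psd (2566 to 3628 counts, against 404 to 566 for Nfkb2). Reads in those stretches could belong to either gene. Nfkbib, Tnfaip2, Il1b, Icam1, Vcam1 and Bcl3 also have such a partner, with at most 18 counts per library in each partner except Sirt2, which covers 1.9% of the exons of Nfkbib at 2471 to 3621 counts.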

How the data were processed

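Each of the 6 islet RNA-seq libraries has a table of whole-number read counts for Ensembl gene IDs, deposited by the authors without normalization, per the file headers. Libraries were made with a KAPA stranded kit, per the labels' protocols. HISAT, featureCounts 1.5.0-p3, DESeq 1.8.3 and the build GRCm38 are named without roles, per the submitters' processing notes. The annotation release is not given in the sources used here. Symbols were found in GENCODE M21 (GRCm38) for 55154 of 55421 IDs, and IDs without one held at most 0.0030% of a library's counts. The sample titles gave the groups and the replicate numbers.

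The whole count table was fitted with edgeR 4.0.16 (R 4.3.3): filterByExpr, TMM factors and the robust quasi-likelihood F test of insB:9-23 against vehicle over all 6 libraries. Benjamini-Hochberg adjustment ran over the 17016 genes that passed the filter, and calls were made at 0.05. Standard errors are the log2 fold change divided by the root of F. CPM values use TMM-scaled library sizes. Total counts were 52052808 to 58880189, and over the TMM-scaled library sizes of 45773041 to 63170712 a level of 3 counts is 0.0475 to 0.0655 CPM. The tests were run on simulated data first, where DESeq2 found more of the changed genes than edgeR and also made more false calls.

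The members, the lists of pathway and marker genes, and the tests were chosen with earlier results of these data known. The text names all 37 members, with values per library for the 35 tested, and pathway genes with an unadjusted p below 0.05. Other pathway names carry the remark that they were picked once values were known. Single marker genes, such as Ccr7, Ighm and Lyz2, were also named with their values known. The fit was repeated with DESeq2 1.42.0, with limma-voom (limma 3.58.1), with scaling by RLE, by upper quartile and by totals, with a stricter and with no filter, at an adjusted p of 0.1, with a replicate block, and without each library in turn. Promoter windows are RefSeq's (GRCm38.p6). The bases after the start site were found in GENCODE transcripts of the same gene for 31 of 34 windows. Exon lengths are the union of annotated exons. Libraries of 1 group differed by a chi-square of 81.5 to 276 per degree of freedom over genes, so none repeats another.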

Additional observations from a re-analysis of the deposited data

How the results depend on the processing

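The count of 0 members past the edgeR test held under each alternative except DESeq2, which called 1 member (Ccl2, log2 fold 2.17, adjusted p = 0.041) and 116 genes in all, and the cause of that difference was not tested. With the filter of at least 1 CPM in 3 libraries 28 members were tested, and Ccl2 was not among them. The number of genes called over the whole table was 14 and ranged from 16 to 26 with 1 library left out: 23 without vehicle replicate 1, 25 without insB:9-23 replicate 1 and 26 without insB:9-23 replicate 3. With the replicate number as a block it was 0 genes by edgeR (605 at an unadjusted p below 0.05) and 0 members (2 at that p). Same-numbered libraries did not deviate together (correlations of -0.069 to -0.005 over genes), and no library correlated best with its own number. The median log2 fold of the members ranged from -0.05 without insB:9-23 replicate 2 to 0.23 without insB:9-23 replicate 1. Scaling by totals put it at 0 and shifted the median over all genes tested to -0.15. Of 273 folds of single members under the other settings 9 turned direction, none of them of a gene past the threshold, and the cause was not tested. With library totals alone these were Nfkbie (-0.14), Nfkb1 (-0.12), Nfkb2 (-0.11), Rela (-0.063), Bcl3 (-0.077) and Cxcl16 (-0.00032), a setting with that shift. The others were Cx3cl1 with limma-voom (0.024) and with the replicate block (0.031), and Birc3 with upper quartile scaling (0.0013). Leaving out 1 library turned 33 of 210 folds, in 22 members, whose ranges were Nfkbib -0.19 to 0.00167, Nfkbie -0.13 to 0.12, Nfkb1 -0.0132 to 0.067, Nfkb2 -0.0231 to 0.17, Rela -0.10 to 0.27, Rel -0.0493 to 0.35, Tnfaip3 -0.24 to 0.36, Il1b -0.36 to 0.13, Il1a -0.21 to 0.66, Il1r1 -0.46 to 0.0575, Il33 -0.67 to 2.91, Ccl7 -0.16 to 0.84, Cxcl1 -0.0486 to 0.80, Cxcl16 -0.0504 to 0.32, Cx3cl1 -0.58 to 0.36, Csf1 -0.11 to 0.0342, Vcam1 -0.83 to 2.21, Nos2 -0.54 to 0.0234, Ptgs2 -0.97 to 1.53, Birc3 -0.0756 to 0.0305, Traf1 -0.11 to 1.90 and Bcl3 -0.15 to 0.34. At this depth a tested member held as few as 3 counts in a library (Ccl7).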

Other observations

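Beyond the members, several genes of the list of further NF-κB targets set the same library apart. Of the 48 tested genes of that list 11 stood over 1.5 times every other library in insB:9-23 replicate 2, against 2.96% of all genes, and these genes were chosen after their values were seen. C3, the central complement component, was at 31.9, 15.4 and 23.2 CPM in the vehicle libraries and 26.5, 62.1 and 7.41 CPM in the insB:9-23 libraries. Cfb, complement factor B, was at 4.04, 3.86 and 4.03 CPM in the vehicle libraries and 3.88, 13.8 and 0.808 CPM in the insB:9-23 libraries. The treated libraries held both the highest and the lowest value of each.

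Cxcl9, an interferon-γ-induced chemokine, was at 1.28, 0.385 and 0.731 CPM in the vehicle libraries and 0.341, 5.34 and 0.284 CPM in the insB:9-23 libraries. Ltb, the lymphotoxin β gene of lymphocytes, was at 0.507, 0.128 and 0.375 CPM in the vehicle libraries and 0.683, 3.06 and 0.109 CPM in the insB:9-23 libraries. Tnfsf10, encoding the death ligand TRAIL, was at 2.15, 5.27 and 3.13 CPM in the vehicle libraries and 5.99, 18.9 and 2.08 CPM in the insB:9-23 libraries. The other 6 were Cxcl13, Il7, Lif, Ch25h, Bcl2a1b and Bcl2a1d, of which the last 2 are near-identical copies whose reads the counting could split. Of the 61 tested upstream genes 2 stood apart in this way, Il18r1 and Casp1. Genes that failed the filter are not in these counts. Among them, Ier2 had 4786 counts in insB:9-23 replicate 2 and 0 in every other library, and Ccl19 had 183 counts there and 1 to 9 in the others. Junb, a tested target, had 0 counts in vehicle replicate 1 and 7254 to 11674 in the others. These genes were named with their values known, and the cause of such values was not tested. In the other direction insB:9-23 replicate 2 lay more than 1.5 times under every other library for 1 of the 48 further targets and 4 of the 61 upstream genes, against 2.74% of all genes. Ccnd1, encoding cyclin D1, was at 182, 168 and 171 CPM in the vehicle libraries and 151, 32.4 and 136 CPM in the insB:9-23 libraries. Traf3, an adaptor that restrains the alternative pathway, was at 62.5, 65.8 and 66.3 CPM in the vehicle libraries and 65.2, 26.4 and 61.2 CPM in the insB:9-23 libraries. Il6st, the shared signalling receptor of the interleukin-6 family, was at 112, 109 and 115 CPM in the vehicle libraries and 107, 51.8 and 101 CPM in the insB:9-23 libraries. The others were Otud7b and Tlr4. The part of the lymphocyte markers of this library in these values was not tested.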
